A study of Mus musculus with 36 samples.

Results

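The 7 genes Mfap5, Mfap4, Pi16, Pdgfra, Tcf21, Gsn and Ddr2 mark the resident fibroblasts of the heart, and their signals were followed through induction and renewed repression of an Akt1 transgene. They were measured by every probe set whose platform annotation gives one of these symbols alone, which was 18 of the 45137 probe sets on the arrays, 15 on chip 430A and 3 on chip 430B. All hearts came from mice labelled male that carried the transgenes Tet-myrAkt1 and ?MHC-tTA, the first character of the second name being damaged in the labels. The α-myosin heavy chain promoter, read from that name, is active in heart muscle cells and not in fibroblasts, and the hearts before induction carry both transgenes too. The groups were 4 hearts after 2 weeks with the transgene on (14 weeks of age), 4 hearts after 2 weeks on and 2 days of repression (14 weeks and 2 days), 3 hearts after 6 weeks on (18 weeks), 3 hearts after 6 weeks on and 2 weeks of repression (20 weeks) and 4 hearts before induction (12 weeks). Age rises with the groups and cannot be told apart from the time on or off. Each of the 18 hearts came from its own mouse by the series' design text, and its arrays on the 2 chips were matched by group and heart number.

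Fibroblasts make and maintain the collagenous matrix between heart muscle cells. Most of those in the ventricles descend from the embryonic epicardium, a step that needs the basic helix-loop-helix factor Tcf21, and at rest they carry the receptor Pdgfra on their surface. When the heart is loaded or injured they divide, lay down more matrix and enter activated states marked by genes such as Postn. The members fall into microfibril proteins (Mfap5, Mfap4), a secreted inhibitor (Pi16), an actin-severing protein (Gsn), a transcription factor (Tcf21) and receptors (Pdgfra, Ddr2). Other cells of the heart transcribe some of them as well, Gsn most widely.

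RefSeq start regions (build GRCm38.p6) were matched by symbol for 5 of the 7 members: Pi16, Pdgfra, Tcf21, Gsn and Ddr2. The bases before the gene's own first base are printed for Pi16, which rose in the induced hearts, for Gsn, which fell, and for the lineage factor Tcf21. The listed starts of Pdgfra and Ddr2, and all but the first of the 3 of Gsn, lie inside the gene and left no bases to print. The Pi16 start, at 29318882, lies inside the gene too, so its stretch ends short of that start. Capitals mark matches on either strand to the E-box CANNTG, the class of motif that basic helix-loop-helix factors bind, or to the FoxO core GTAAACA, bound by factors that Akt kinases keep out of the nucleus.
Pi16, chr17:29318632-29318795, plus strand: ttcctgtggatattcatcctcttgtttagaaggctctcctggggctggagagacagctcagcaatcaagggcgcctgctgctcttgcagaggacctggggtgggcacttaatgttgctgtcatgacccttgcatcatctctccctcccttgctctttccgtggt
Gsn, chr2:35256109-35256358, plus strand: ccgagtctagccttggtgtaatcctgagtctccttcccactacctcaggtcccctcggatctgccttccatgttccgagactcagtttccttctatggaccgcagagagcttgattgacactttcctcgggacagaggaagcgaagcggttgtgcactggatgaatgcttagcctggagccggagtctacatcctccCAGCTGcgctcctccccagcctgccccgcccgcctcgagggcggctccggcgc
Tcf21, chr10:22820144-22820393, minus strand: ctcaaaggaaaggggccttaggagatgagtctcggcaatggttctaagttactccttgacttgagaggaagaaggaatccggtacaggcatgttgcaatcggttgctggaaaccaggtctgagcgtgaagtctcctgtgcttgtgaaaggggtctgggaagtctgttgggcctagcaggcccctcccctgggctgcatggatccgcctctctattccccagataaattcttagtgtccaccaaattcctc
The Gsn stretch held 1 E-box, and the Pi16 and Tcf21 stretches held 0. At least 1 E-box was in 66.2% of all 32851 windows of 250 bases and in 52.3% of windows of 164 bases, the length of the Pi16 stretch. The FoxO core was in 0 of the 3 stretches, in 3.17% of windows of 250 bases and in 2.17% of those of 164 bases. The motifs do not share letters in a way that makes a match to one a match to the other, and a match is no more than letters in this window.

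Signals are deposited array intensities in arbitrary units, so the level of one gene is not set against that of another. The Akt1 probe set 1425711_a_at read 1981 to 3481 after 2 weeks on and 1851 to 2931 after 6 weeks on, against 507.7 to 652.2 before induction. It read 696.1 to 745.4 after 2 days off and 633.3 to 836.8 after 2 weeks off, so induced and repressed hearts separated as labelled. Heart muscle genes were bright in all hearts, Myh6 for example at 15611 to 39594. Hearts 3 and 4 before induction go against their label of male: the Xist probe set 1436936_s_at read 5412 and 3271 in them, against 136.2 to 289.2 in the other 16 hearts. With both left out, 1.58%, 1.54%, 6.39% and 0.834% of all tested probe sets were called in either direction after 2 weeks on, 2 days off, 6 weeks on and 2 weeks off relative to before induction, against 5.01%, 3.23%, 13.2% and 2.57% with them, and member changes relative to before induction are also given without this pair. The 3′ to 5′ ratio of the Actb control probe sets on chip 430A, a gauge of RNA integrity, was 3.71 in heart 3 after 6 weeks on and at most 1.92 in the other groups. The signal of the 18S RNA control on that chip averaged 43.2 ± 26 after 6 weeks on and 49.6 ± 3.61 after 2 weeks off (SD, n = 3 each), against 244 ± 74.4 before induction (SD, n = 4), and the part of these measures in the members' changes was not tested. Fewer cells of a type and less RNA per cell cannot be told apart in these bulk samples.

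Of the 18 probe sets, 15 standing for 6 genes had a mean over all hearts of at least 20% of the chip's trimmed mean and were tested together with all 33084 probe sets past that filter. The 3 below it were the single Mfap4 probe set, whose mean of 96.41 was just under the minimum of 100, Pi16 1422026_at with 22.42 and Gsn 1456568_at with 3.333. The dimmest member probe set past the minimum on that chip was Pdgfra 1421916_at with 199.5. "Rose" and "fell" are used for adjusted p under 0.05. Whether groups overlap is stated as a description of the hearts, since the share of all probe sets without overlap is not given here. Changes are log2 differences of signal plus a small offset, which understates the change of dim probe sets, given with the SE of the fit.

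After 2 weeks on, 3 of the 15 rose and 4 fell relative to before induction, where 2.66% of all tested probe sets rose and 2.35% fell. Mfap5 and Pi16 made up the rises and Gsn the falls, and the same held for the 3 rises and 2 falls after 6 weeks on, where 5.65% of all rose and 7.54% fell. Between 6 and 2 weeks on 0 members were called, against 1.69% of all higher and 2.36% lower, with 2 higher and 1 lower members at an unadjusted p under 0.05 in limma. Repression for 2 days changed 0 of the 15 relative to 2 weeks on, although 5.29% of all rose and 4.44% fell. At an unadjusted p under 0.05 in limma 3 were higher and 1 lower there, and 1 was called under quantile normalization. Relative to before induction 2 were higher and 4 lower after 2 days off, against 1.77% and 1.46% of all. The 2 were both Mfap5 probe sets and the 4 were the bright Gsn probe sets. By the brightest probe set of each of the 6 genes, 1 gene was higher and 1 lower.

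Repression for 2 weeks after 6 weeks on raised 1 and lowered 3 of the 15 relative to 6 weeks on, where 6.48% of all rose and 4.41% fell. Relative to before induction 1 was then higher and 3 lower, against 1.17% and 1.4% of all. The 1 was an Mfap5 probe set and the 3 were Gsn probe sets, and probe sets of the same gene are not independent. By the brightest probe set of each of the 6 genes, 0 genes were higher and 1 lower. The late and the early response to repression differed for 0 members, with 1 higher and 2 lower at an unadjusted p under 0.05 in limma, while 0.236% and 0.233% of all were called. Over the 15 member probe sets the median change relative to before induction was -0.08 after 2 weeks on and -0.25 after 6 weeks on. That of all tested probe sets was -0.03 and -0.08. With a single probe set for each of the 6 genes, the members' medians were -0.22 and -0.15, so their order depends on this choice. The comparisons with before induction share those 4 hearts and are not independent of each other.

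Mfap5 encodes a glycoprotein of the fibrillin microfibrils around elastic fibres, and it rose with induction at both of its probe sets. Probe set 1418454_at read 2091, 1992, 2444 and 2688 after 2 weeks on, against 854.1, 789.3, 872.7 and 1767 before induction. The groups did not overlap, and heart 4 before induction, which has Xist signal, stood well above its 3 companions. The mean was 2304 ± 321 after 2 weeks on and 1071 ± 466 before induction (SD, n = 4 each), a ratio of 2.15 and a log2 change of 1.14 ± 0.28 (adjusted p = 0.0148). The change was 1.42 with the pair of hearts with Xist signal left out (adjusted p = 0.0199) and 1.03 without heart 2 before induction (adjusted p = 0.0511). The other probe set, 1449082_at, read 776.7, 711.1, 998.5 and 1079 after 2 weeks on, against 399.1, 368.7, 290.1 and 464 before induction. Again no heart overlapped, and the change was 1.13 ± 0.20 (adjusted p = 0.00168), or 1.10 without the pair (adjusted p = 0.0221).

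With 6 weeks on, Mfap5 1418454_at read 2906, 4854 and 1689, and heart 3 of these lay within the range of the hearts before induction. The change from before induction was 1.47 ± 0.30 (adjusted p = 0.0022), and 1.75 without the pair with Xist signal (adjusted p = 0.003). At 1449082_at the hearts read 932.5, 1848 and 839.9, all above every heart before induction, with a change of 1.48 ± 0.22 (adjusted p = 0.000136) and of 1.45 without the pair (adjusted p = 0.00203). Heart 2 of this group was the highest of all 18 hearts at both probe sets.

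Mfap5 1449082_at was called higher than before induction in both repressed groups. After 2 days off 1418454_at read 2251, 2154, 2593 and 1578, overlapping the hearts after 2 weeks on (change -0.11, 95% interval -0.69 to 0.47, adjusted p = 0.82). Relative to before induction it rose by 1.03 ± 0.28 (adjusted p = 0.0378), or by 1.31 without the pair with Xist signal (adjusted p = 0.0347). That call was lost with no filter (adjusted p = 0.0527), on arrays scaled to a common median (0.0569), with a variance model without trend (0.0528) and without any 1 of hearts 1 to 3 of either group (0.0865 to 0.11). At 1449082_at the hearts read 759, 676.3, 927.5 and 779.9, a rise of 0.96 ± 0.20 (adjusted p = 0.00874) from before induction, or 0.94 without the pair with Xist signal (adjusted p = 0.0484).

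The hearts after 2 weeks off read 2708, 2441 and 1480 at Mfap5 1418454_at and 826.3, 814.3 and 698.3 at 1449082_at. Relative to before induction the change of the first was 1.04 ± 0.30 and missed the threshold (adjusted p = 0.0578), as it did without the pair with Xist signal (1.33, adjusted p = 0.0537). It passed with a filter of 50% of the trimmed mean (adjusted p = 0.0467), without heart 4 before induction (0.0174), without heart 2 or heart 3 after 6 weeks on (0.0335 and 0.0223) and without heart 3 after 2 weeks off (0.048). Probe set 1449082_at rose by 0.96 ± 0.22 (adjusted p = 0.0176), a call lost without the pair with Xist signal (0.93, adjusted p = 0.0861), without heart 3 before induction (0.062) and without heart 1 or heart 2 after 2 weeks off (0.0704 and 0.051). Relative to 6 weeks on the changes were -0.42 (adjusted p = 0.397) and -0.52 (adjusted p = 0.126). In order of mean signal both probe sets had 6 weeks on first, 2 weeks on next and before induction last, and only the last step exceeded the larger SD of the neighbouring groups.

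Mfap4, another microfibril-associated protein, which binds collagen and elastin, was near the bottom of the scale before induction. Its probe set 1424010_at read 60.6, 359.4 and 313.3 after 6 weeks on, against 12.9, 27.9, 13.9 and 17.7 before induction. All 3 induced hearts lay above the 4 others, with means of 244.4 ± 161 after 6 weeks on and 18.1 ± 6.85 before induction (SD, n = 3 and 4). In the fit with no filter the log2 change was 1.91 ± 0.46 (adjusted p = 0.00939). Without the pair with Xist signal it was 1.86 and not called (adjusted p = 0.068). The hearts after 2 weeks on read 69.8, 31, 174.6 and 76, also above every heart before induction, and the change of 0.92 ± 0.42 was not called (adjusted p = 0.25, and 0.581 without the pair). Those after 2 days off read 73.4, 71.9, 117.6 and 19.4, and those after 2 weeks off 228.1, 38.6 and 29.2. Heart 1 of the last group was the high one, and neither change from the matching induced hearts was called (adjusted p = 0.862 and 0.207). Group means of Mfap4 were highest after 6 weeks on and lowest before induction, and only the lowest step, to before induction, exceeded the larger SD.

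Of 13 listed genes of microfibrils and elastic fibres, 11 were measured past the filter. After 2 weeks on 2 rose and 0 fell relative to before induction (median 0.57), namely Loxl1, an elastin-crosslinking enzyme (0.82, adjusted p = 0.00318), and Eln, elastin itself (0.78, adjusted p = 0.0248). With 6 weeks on 3 rose and 0 fell (median 0.44): Mfap3l (1.36), Loxl1 (0.73) and Ltbp3 (0.75), which tethers latent TGF-β. Relative to 6 weeks on, Mfap3l fell by 1.14 on the log2 scale after 2 weeks off and Ltbp4 rose by 0.77, and Eln was higher after 2 weeks off than before induction (0.97, adjusted p = 0.0222). Without the pair with Xist signal 0 of these genes were called after 2 weeks on relative to before induction, Loxl1 changing by 0.62, adjusted p = 0.083. Mfap3l alone was called after 6 weeks on (1.59, adjusted p = 0.00329), and Eln was not after 2 weeks off (0.96, adjusted p = 0.114).

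Pi16, a secreted peptidase inhibitor that marks a fibroblast population found in many organs, rose during induction and fell after 2 weeks of repression. Probe set 1453839_a_at read 1391, 994.7, 1178 and 1654 after 2 weeks on, against 994.2, 637, 629.6 and 601.9 before induction. The groups touched without overlapping, since the lowest heart after 2 weeks on read 994.7 and the highest before induction 994.2. The means were 1304 ± 284 after 2 weeks on and 715.7 ± 186 before induction (SD, n = 4 each), and the log2 change was 0.83 ± 0.18 (adjusted p = 0.00725). Leaving out the pair with Xist signal ended the call (0.65, adjusted p = 0.14). The hearts after 6 weeks on read 1643, 1998 and 2006, all above every heart before induction, a change of 1.36 ± 0.20 (adjusted p = 0.000116), or 1.18 without the pair (adjusted p = 0.00469). The further 0.53 ± 0.20 between 6 and 2 weeks on was not called (adjusted p = 0.112).

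After 2 weeks off, Pi16 1453839_a_at read 1044, 918.7 and 746, against 1643, 1998 and 2006 after 6 weeks on. No heart overlapped, the ratio of means was 0.48 and the log2 change -1.03 ± 0.21 (adjusted p = 0.00243). The difference from before induction was then 0.33 ± 0.20 (adjusted p = 0.395), and 0.16 without the pair with Xist signal (adjusted p = 0.817). Hearts after 2 days off read 772.2, 1059, 1091 and 725.2 and overlapped those after 2 weeks on. That change, -0.49 ± 0.18, was not called (adjusted p = 0.0652), but was without heart 1 before induction (0.0407) or heart 2 after 2 weeks on (0.0318). The late and early responses to repression differed by -0.54 (95% interval -1.11 to 0.04, adjusted p = 0.414). In order of mean signal came 6 weeks on, 2 weeks on, 2 days off, 2 weeks off and before induction. Each step exceeded the larger SD except that from 2 days off (912) to 2 weeks off (903). The dim 1422026_at read 10.3 to 61.3 over all hearts and was called in no comparison in the fit with no filter.

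**Figure D1:**
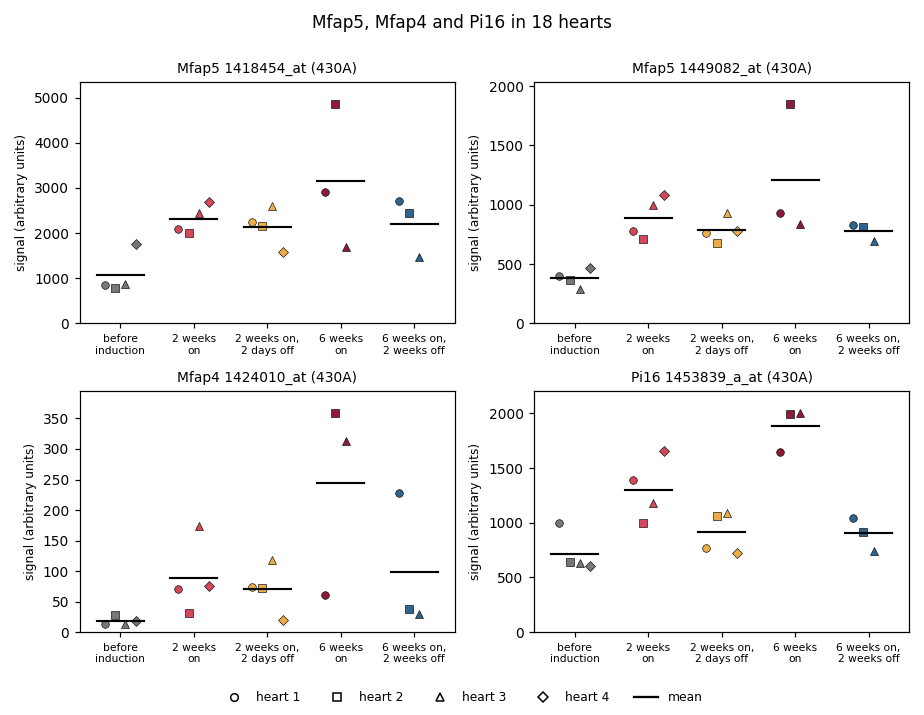
Array signal (arbitrary units, linear axes from 0) of both Mfap5 probe sets, the Mfap4 probe set and the bright Pi16 probe set 1453839_a_at in each of 18 hearts by group; symbol shapes give the heart's number and lines the group means. In each panel all 4 hearts after 2 weeks on lie above all 4 before induction, and Pi16 lies lower in the 3 hearts after 2 weeks off (746 to 1044) than in the 3 after 6 weeks on (1643 to 2006). The Mfap4 change after 2 weeks on was not called.

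Gsn encodes gelsolin, which cuts and caps actin filaments and is also secreted, and it fell after 2 weeks on at all 4 of its bright probe sets. Probe set 1415812_at read 6437, 6944, 7961 and 8963 after 2 weeks on, against 13780, 13622, 12956 and 17470 before induction. Every induced heart lay below every heart before induction, with means of 7576 ± 1121 and 14457 ± 2040 in these groups (SD, n = 4 each), a ratio of 0.52 and a log2 change of -0.93 ± 0.15 (adjusted p = 0.000706). Without the pair with Xist signal it was -0.86 (adjusted p = 0.0168). The other bright probe sets, 1456312_x_at, 1437171_x_at and 1436991_x_at, changed by -0.70, -0.68 and -0.61 (adjusted p = 0.00821, 0.0081 and 0.00616), also with no overlap. Their calls were lost without the pair (-0.59, -0.58 and -0.52, adjusted p = 0.121, 0.129 and 0.105). The suffix x marks probe sets with probes that may also match other transcripts, so their values are less certain to be Gsn alone.

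Gsn 1415812_at read 10486, 8983 and 6317 after 6 weeks on, below every heart before induction. The change was -0.77 ± 0.16 (adjusted p = 0.00244), and -0.70 without the pair with Xist signal (adjusted p = 0.0263). At 1436991_x_at the hearts read 4648, 4508 and 6994, a fall of 0.50 on the log2 scale (adjusted p = 0.0167). Heart 3, whose Actb ratio was 3.71, lay here within the range before induction. The call was lost on arrays scaled to a common median (-0.29, adjusted p = 0.188), without the pair with Xist signal (0.141), with only the compared groups fitted (0.102), without heart 4 before induction (0.0534) and without heart 1 or heart 2 after 6 weeks on (0.0781 and 0.0847). The changes at 1437171_x_at and 1456312_x_at were -0.44 (adjusted p = 0.0588) and -0.40 (adjusted p = 0.0949). Without the pair with Xist signal they were -0.34 and -0.29 (adjusted p = 0.3 and 0.385). The change at 1437171_x_at was called without heart 3 after 6 weeks on (-0.63, adjusted p = 0.0133), without heart 1 before induction (0.0258), with a filter of 50% of the trimmed mean (0.0498) and under quantile normalization (0.0495).

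Gsn stayed low after 2 days off. All 4 bright probe sets were called lower than before induction, with changes of -0.80 to -0.61, and none was called relative to 2 weeks on. Probe set 1436991_x_at read 4494, 4300, 4021 and 4314 after 2 days off, against 6017, 8165, 7406 and 8616 before induction, without overlap. The change was -0.80 ± 0.13 (adjusted p = 0.00185), and -0.71 without the pair with Xist signal (adjusted p = 0.0311). Leaving out that pair ended the calls of 1456312_x_at, 1415812_at and 1437171_x_at (adjusted p = 0.1, 0.118 and 0.0894). Quantile normalization ended those of 1456312_x_at (0.0874) and 1415812_at (0.178). The call of 1415812_at was also lost without heart 4 before induction (0.0589) and without heart 1 or heart 4 after 2 days off (0.0553 and 0.0809). Relative to 2 weeks on, 1415812_at changed by 0.32 (adjusted p = 0.136), and by 0.51 under quantile normalization (adjusted p = 0.0378).

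Of the bright Gsn probe sets, 1456312_x_at and 1437171_x_at fell after 2 weeks off relative to 6 weeks on. At 1456312_x_at the hearts read 6654, 9801 and 6205, against 11571, 10850 and 12516 after 6 weeks on, a change of -0.65 ± 0.18 (adjusted p = 0.0164) with no overlap. At 1437171_x_at they read 4449, 6070 and 4448, against 6746, 6336 and 9613 after 6 weeks on, a change of -0.59 ± 0.17 (adjusted p = 0.0233), again with no overlap. At 1415812_at they read 9728, 9222 and 10888, against 10486, 8983 and 6317 after 6 weeks on, and the groups overlapped (0.24 ± 0.17, adjusted p = 0.365). The calls of 1456312_x_at and 1437171_x_at were lost under quantile normalization (adjusted p = 0.0771 and 0.0769) and with only the compared groups fitted (0.0758 and 0.117). They were lost too without heart 3 after 6 weeks on (0.0607 and 0.132), heart 1 after 2 weeks off (0.06 and 0.0805) or heart 3 after 2 weeks off (0.0841 and 0.091). At 1436991_x_at the change was -0.40 (adjusted p = 0.0677), called on arrays scaled to a common median (0.0255), without heart 1 before induction (0.046) and without heart 1 or heart 2 after 6 weeks on (0.0475 and 0.0334).

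Relative to before induction the 3 bright Gsn probe sets with the suffix x changed after 2 weeks off by -1.05, -1.03 and -0.90 (adjusted p = 0.0021, 0.0019 and 0.0018), and each was called without the pair with Xist signal (adjusted p = 0.0301, 0.0308 and 0.028). Probe set 1415812_at changed by -0.53 ± 0.16 and was not called (adjusted p = 0.0697, and 0.254 without the pair), but was without heart 3 after 6 weeks on (0.0244). The log2 difference of 1415812_at from the mean of the other 3 was 0.594 ± 0.177 after 2 days off and 0.181 ± 0.156 after 2 weeks on (SD, n = 4 each). The two-sided exact permutation p was 0.0286, the smallest that 4 against 4 hearts allow, and 0.114 adjusted over the 4 comparisons made. This log2 difference was 0.917 ± 0.336 after 2 weeks off and 0.128 ± 0.618 after 6 weeks on (SD, n = 3 each, exact permutation p = 0.2, and 0.267 adjusted over the 4). The smallest p that 3 against 3 hearts allow is 0.1, so this test could not call a difference there. Hearts after 6 weeks on ran from -0.58 to 0.556, lowest in heart 3, whose Actb ratio was 3.71. After 2 and 6 weeks on the mean log2 difference lay -0.268 and -0.321 from that before induction (exact permutation p = 0.0857 and 0.486). Over the 18 hearts the 3 bright probe sets with the suffix correlated with each other at r = 0.859 to 0.931 and with 1415812_at at r = 0.465 to 0.499, all read from the same arrays. The dim 1456569_x_at correlated with these 4 at r = 0.172 to 0.401. Mean signal was highest before induction at all 4 bright probe sets, by more than the larger SD over the next group, which was 2 weeks off at 1415812_at and 6 weeks on at the others. The lowest mean was that of 2 weeks on at 1415812_at and that of 2 weeks off at the others. Probe set 1456569_x_at read 41.5 to 518.4 and was called in none of the 8 comparisons, though it was after 6 weeks on relative to before induction with only the compared groups fitted (0.0455), and 1456568_at stayed at 1 to 7.3.

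**Figure D2:**
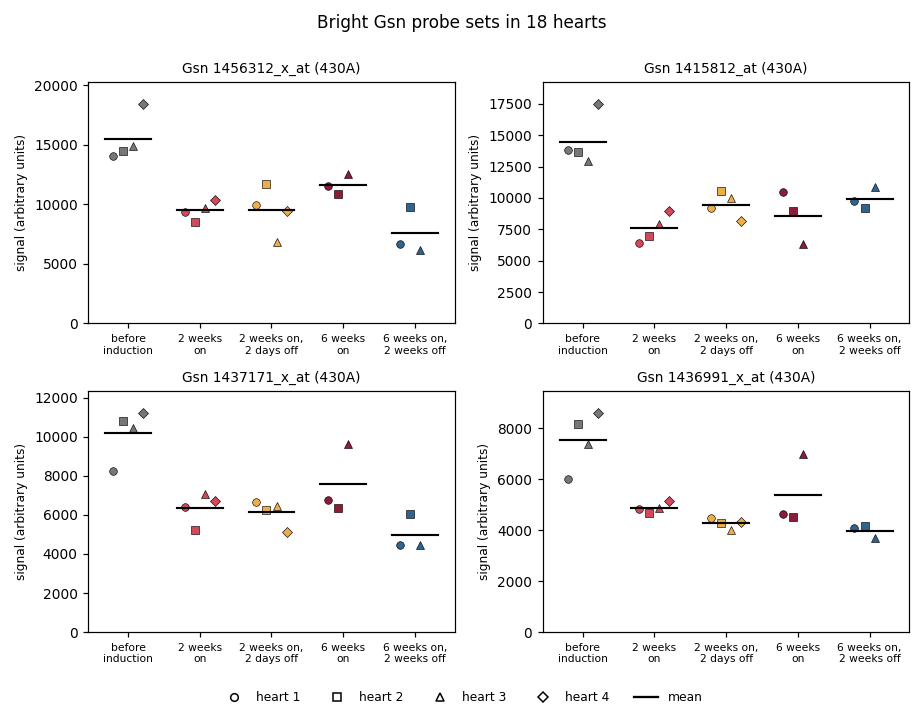
Array signal (arbitrary units, linear axes from 0) of the 4 bright Gsn probe sets in each of 18 hearts by group; symbol shapes give the heart's number and lines the group means. In each panel all 4 hearts after 2 weeks on (at 1415812_at 6437 to 8963) lie below all before induction (12956 to 17470), and the 3 probe sets with the suffix x lie lower in all 3 hearts after 2 weeks off than in those after 6 weeks on, while 1415812_at overlaps.

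Of 7 listed genes of the gelsolin family, which share its actin-binding repeats, 5 were measured. None was called after 2 or 6 weeks on relative to before induction, with changes of -0.37 to 0.37 and -0.16 to 0.38. The single call was Svil, supervillin, higher after 2 weeks off than before induction (0.59 ± 0.15, adjusted p = 0.0389), and it was lost without the pair with Xist signal (0.47, adjusted p = 0.23).

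Tcf21, the transcription factor of the epicardial fibroblast lineage, was called in 1 comparison at 1 of its 2 probe sets. Probe set 1417447_at read 400.3, 536.7, 473.6 and 444.2 after 2 weeks on, against 397.4, 479.6, 508 and 588.8 before induction, and the groups overlapped (-0.08, 95% interval -0.40 to 0.25, adjusted p = 0.815), with a change of 0.07 without the pair with Xist signal (adjusted p = 0.916). With 6 weeks on it read 269.5, 334.8 and 436.3, a change of -0.46 ± 0.17 from before induction that missed the threshold (adjusted p = 0.0558). Without the pair it was -0.32 (adjusted p = 0.34). It passed with a filter of 50% of the trimmed mean (0.0447), without heart 1 before induction (0.0289), heart 3 after 6 weeks on (0.0227) or heart 3 after 2 weeks off (0.044). The hearts after 2 weeks off read 607.8, 556.8 and 402.7, a rise of 0.53 ± 0.18 (adjusted p = 0.0444) from 6 weeks on although the groups overlapped. That call was lost with no filter (0.0635), under quantile normalization (0.104), on arrays scaled to a common median (0.14), with only the compared groups fitted (0.167) and on leaving out any 1 of 11 hearts, among them hearts 1 and 2 of both compared groups (0.0506 to 0.179). The hearts after 2 days off read 418.4, 464.1, 425.1 and 522.3. Group means of 1417447_at were lowest after 6 weeks on, and that lowest step alone exceeded the larger SD.

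On chip 430B, Tcf21 1458887_at lay between 165 and 260.4 in all hearts, with changes of -0.12 to 0.08 between groups and no call, or of 0.09 to 0.20 relative to before induction without the pair with Xist signal, again with no call. The Tcf21 probe sets correlated at r = 0.111 over the 18 hearts. Among markers of epicardium and mesothelium, 6 of 8 were measured, and the calls were for Aldh1a2 alone, the retinoic acid-synthesising enzyme of the epicardium. It rose after 2 weeks on relative to before induction (1.95 ± 0.38, adjusted p = 0.00365, and 0.0162 without the pair) and fell after 2 days off relative to 2 weeks on (-1.57 ± 0.38, adjusted p = 0.00848).

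Pdgfra, the receptor for PDGF-A and PDGF-C on resting fibroblasts, was called in no comparison at any of its 3 probe sets, nor in the comparisons with before induction without the pair with Xist signal (changes of -0.56 to 0.87). The brightest, 1421917_at, read 404, 310, 664.5 and 815.4 after 2 weeks on, against 949.5, 639.5, 698.2 and 704.1 before induction. Hearts 1 and 2 after 2 weeks on lay below every heart before induction, while the groups overlapped (-0.49, 95% interval -1.03 to 0.06, adjusted p = 0.278). It read 890.2, 803.2, 587 and 834.4 after 2 days off (0.54 relative to 2 weeks on, 95% interval -0.01 to 1.09, adjusted p = 0.16). It read 818.7, 830.5 and 801.5 after 2 weeks off, against 669.6, 1209 and 438.5 after 6 weeks on. The hearts after 6 weeks on were widely spread, and no neighbouring group means of this probe set differed by more than the larger SD.

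Pdgfra 1421916_at read 297.3, 311.5, 248.2 and 272.1 after 2 days off, against 170.3, 228.3, 146.6 and 151.6 after 2 weeks on. The groups did not overlap, and the change of 0.58 ± 0.26 was not called (adjusted p = 0.129), but was with only the compared groups fitted (0.0172) and without heart 1 after 2 weeks off (0.0337). After 2 weeks off it read 78.6, 312 and 269.5, against 106.1, 150.2 and 88.4 after 6 weeks on. Heart 1 after 2 weeks off was the lowest of all 18 and heart 2 of that group the highest, and the change of 0.59 (adjusted p = 0.178) was 1.06 without heart 1 (adjusted p = 0.00613). The dim 1438946_at on chip 430B read 58.48, 75.97 and 45.47 after 6 weeks on, against 16.51, 40.42, 40.32 and 14.85 before induction, without overlap and without a call (0.89, adjusted p = 0.233). Correlations among the 3 probe sets over the 18 hearts were -0.059 to 0.326.

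Of 5 listed PDGF ligands and the second receptor, all 5 were measured, and Pdgfb alone was called. This ligand, with which endothelial cells hold pericytes, fell after 6 weeks on relative to before induction (-0.69 ± 0.16, adjusted p = 0.00531, and -0.86, adjusted p = 0.00521 without the pair with Xist signal) and relative to 2 weeks on (-0.69, adjusted p = 0.0144). It rose after 2 weeks off relative to 6 weeks on (1.01 ± 0.17, adjusted p = 0.000732).

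Ddr2, a receptor tyrosine kinase that binds fibrillar collagen, was called in no comparison, nor in those with before induction without the pair with Xist signal (changes of -0.36 to 0.23). Probe set 1422738_at read 455.8, 268.8, 493.4 and 477.8 after 2 weeks on, against 504.1, 592.2, 530.6 and 562.3 before induction. The groups did not overlap, heart 2 after 2 weeks on stood lowest of all 18, and the change was -0.36 ± 0.19 (95% interval -0.76 to 0.03, adjusted p = 0.262). After 2 days off it read 561.5, 641.5, 614.7 and 496.9, above every heart after 2 weeks on (0.43 ± 0.19, adjusted p = 0.12). It read 334.4, 622.9 and 598.7 after 2 weeks off, against 349.6, 500.4 and 524.2 after 6 weeks on, where the groups overlapped. On chip 430B 1455688_at lay between 300.1 and 484.5 in all hearts, with changes of -0.16 to 0.20 between groups. The 2 probe sets correlated at r = 0.008, and no neighbouring group means of either differed by more than the larger SD.

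Of 6 listed collagen receptors beside Ddr2, 5 were measured. Itgb1, the β1 chain of the collagen-binding integrins, rose after 2 days off relative to 2 weeks on (0.85 ± 0.22, adjusted p = 0.0113) and after 2 weeks off relative to 6 weeks on (1.39 ± 0.25, adjusted p = 0.00117). Ddr1, the relative of Ddr2, rose after 6 weeks on relative to before induction (0.64 ± 0.18, adjusted p = 0.0183, and 0.73, adjusted p = 0.0429 without the pair).

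**Figure D3:**
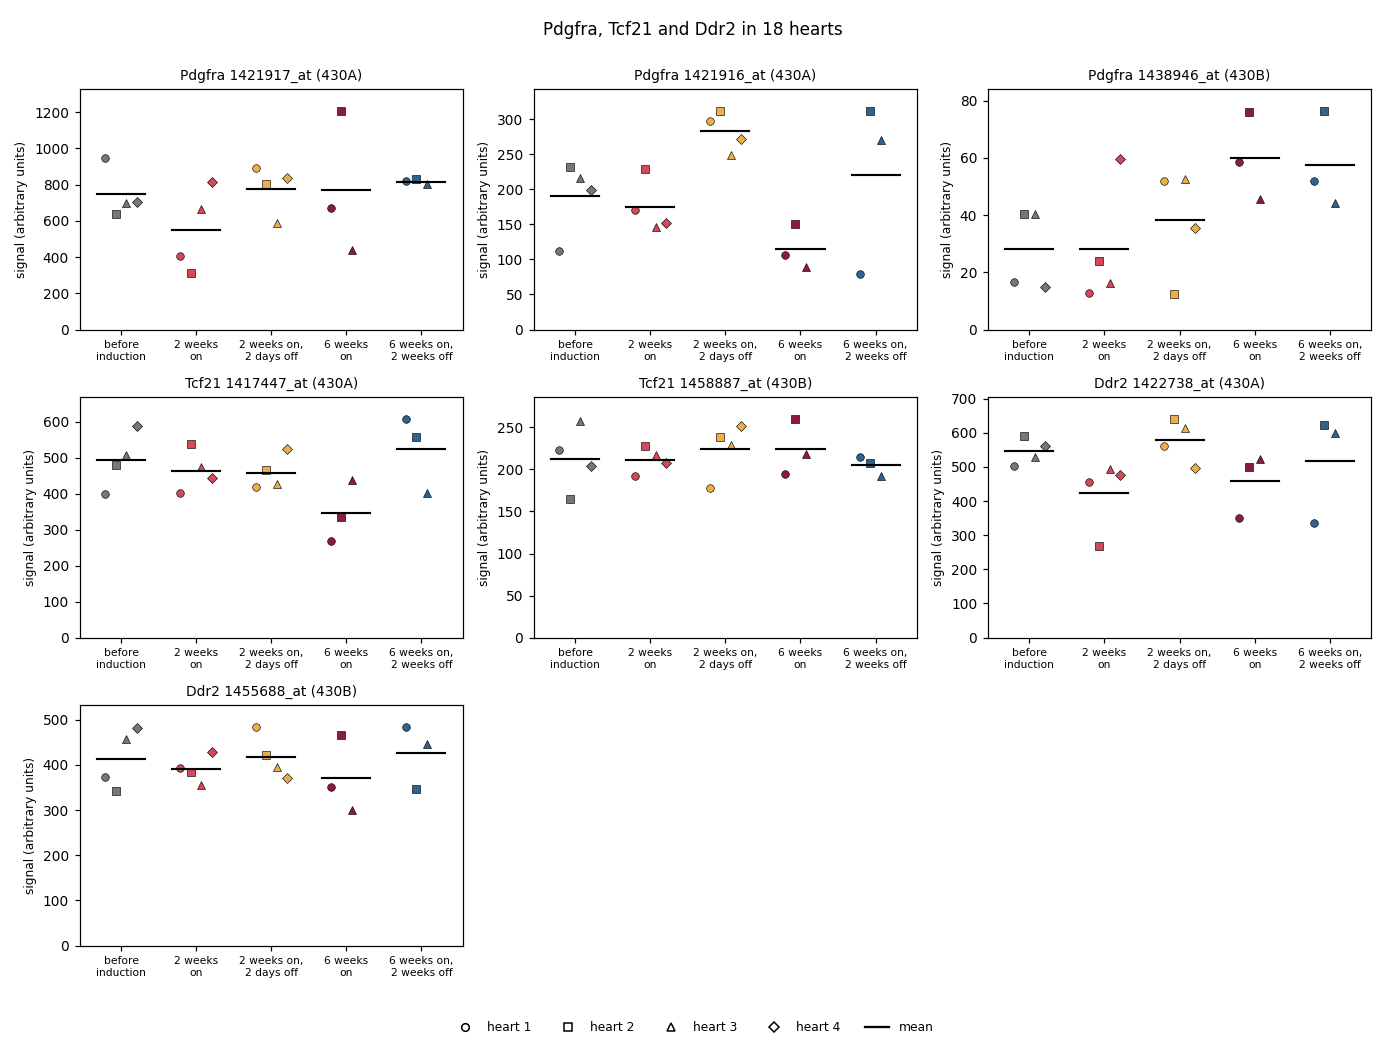
Array signal (arbitrary units, linear axes from 0) of the Pdgfra, Tcf21 and Ddr2 probe sets in each of 18 hearts by group; symbol shapes give the heart's number and lines the group means. The groups overlap in most panels, and at Pdgfra 1421916_at the 4 hearts after 2 days off (248.2 to 311.5) lie above the 4 after 2 weeks on (146.6 to 228.3).

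**Figure D4:**
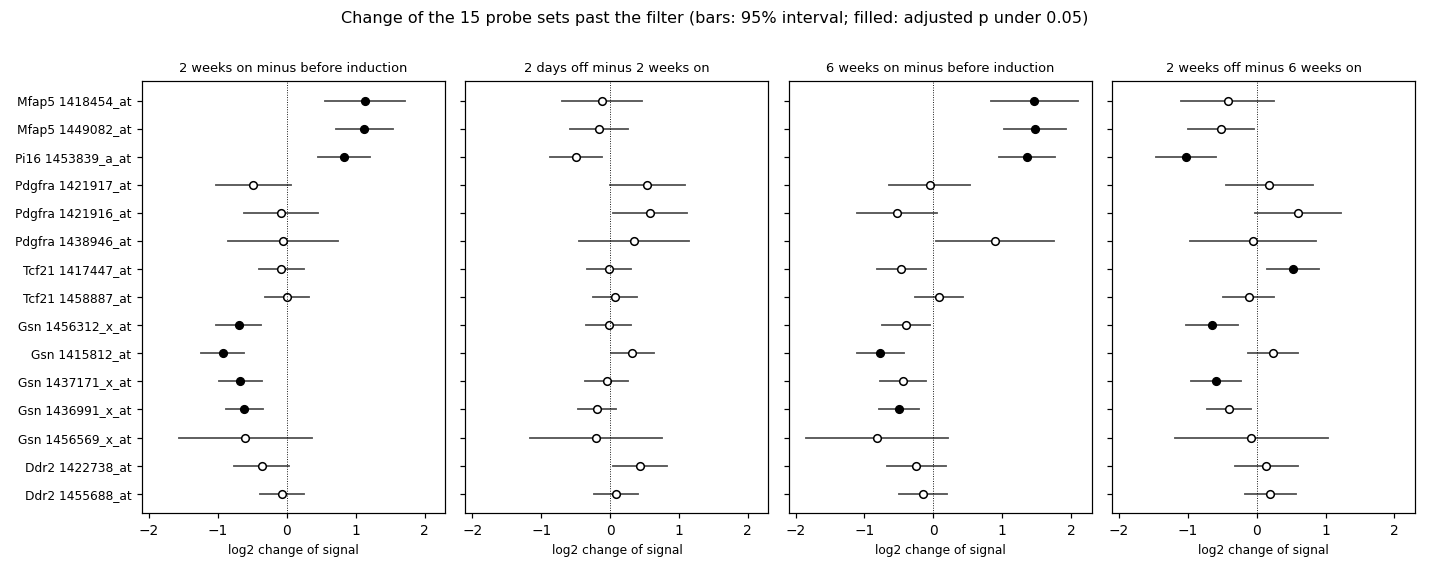
Log2 change of signal of the 15 tested probe sets in 4 comparisons, first group minus second, with 95% intervals; filled points have an adjusted p under 0.05. In the comparisons with before induction the filled points right of 0 are Mfap5 and Pi16 and those left of 0 are Gsn, and none is filled after 2 days off relative to 2 weeks on.

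Further markers of resident fibroblasts moved in both directions. Of 24 measured genes of the list, 8 rose and 4 fell after 2 weeks on relative to before induction (median 0.28). The first 4 by adjusted p were Cd34 (0.72), Htra3 (-0.65), the collagen Col3a1 (0.75) and Pcolce, an enhancer of collagen maturation (0.83). Beside Htra3, those that fell were Clec3b (-0.73), Scara5 (-0.80) and Fbln1 (adjusted p = 0.0141), named after their values were seen. Without the pair with Xist signal 2 were higher and 1 lower after 2 weeks on relative to before induction, which were Cd34 (0.65, adjusted p = 0.0289), Col3a1 (0.84, adjusted p = 0.0191) and Htra3 (-0.70, adjusted p = 0.0191). After 2 days off 5 rose and 2 fell relative to 2 weeks on, first Htra3 (0.67), Dpep1 (1.06), Scara5 (0.86) and Cd34 (-0.48). The others were Clec3b (0.58), Fbln1 (0.87) and Pcolce (-0.56), again named after their values were seen. The bright Gsn probe sets changed by -0.19 to 0.32 there with no call. With 6 weeks on 6 rose and 3 fell relative to before induction (median -0.03), first among them Pcolce (1.32), Mgp (0.99), Scara5 (-1.24) and Col1a2 (1.21) by adjusted p, and 6 were higher and 1 lower without the pair. Repression for 2 weeks raised Scara5 (1.14) and Lum (0.85) and lowered Pcolce (-0.82) and Mgp (-0.58) relative to 6 weeks on, the 4 called of the 24.

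Among 16 markers of activated fibroblasts 9 rose and 0 fell after 2 weeks on relative to before induction (median 0.86), with the lowest adjusted p for Postn (3.11 ± 0.21), Cilp (2.61 ± 0.26), Meox1 (1.53 ± 0.17) and Lox (1.00 ± 0.19). With 6 weeks on 10 rose and 0 fell relative to before induction (median 1.35), with the lowest adjusted p for Postn (2.80 ± 0.23), Cilp (3.41 ± 0.29), Thbs4 (4.08 ± 0.46) and Ltbp2 (1.87 ± 0.22). After 2 weeks off 9 were higher than before induction (median 1.07), and relative to 6 weeks on 3 fell: Ltbp2 (-1.11), Thbs4 (-1.55) and Cilp (-1.19). Without the pair with Xist signal 5, 9 and 5 of the 16 were higher than before induction after 2 weeks on, 6 weeks on and 2 weeks off. For comparison, the brightest probe set of each of 6 members changed by -0.70 to 1.14 after 2 weeks on and by -0.46 to 1.47 after 6 weeks on. Gsn was represented by 1456312_x_at in these ranges, and its probe set 1415812_at changed by -0.93 and -0.77.

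**Figure D5:**
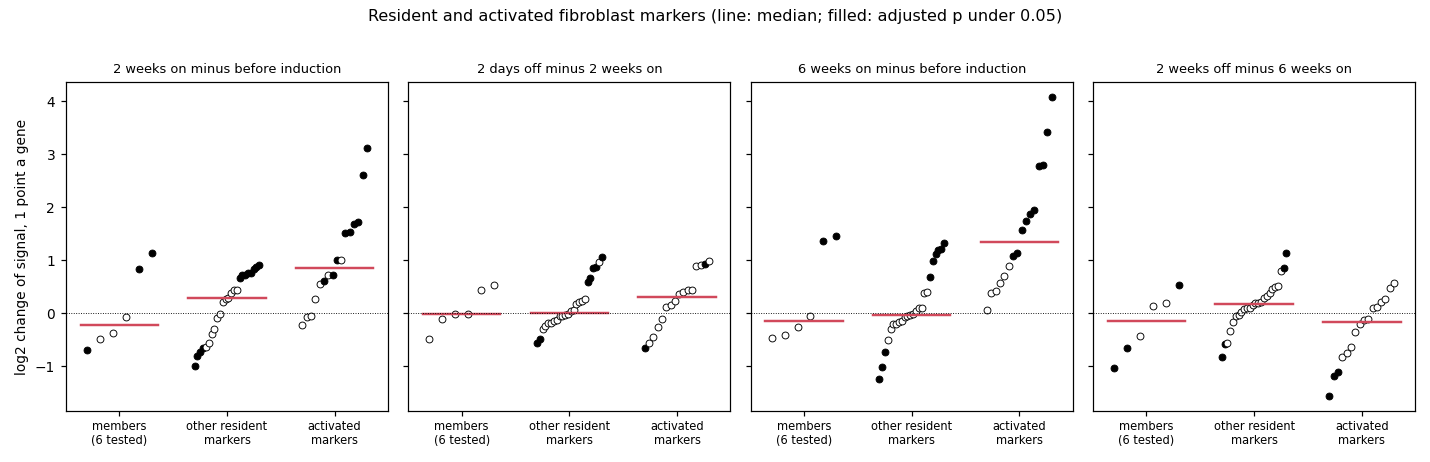
Log2 change of signal per gene, by its brightest probe set, for 6 tested members, 24 other resident and 16 activated fibroblast markers in 4 comparisons; lines are medians and filled points have an adjusted p under 0.05. The activated markers have the highest medians after induction (0.86 and 1.35), while members and other resident markers lie on both sides of 0. Gsn is drawn by 1456312_x_at, called lower after 2 weeks off relative to 6 weeks on, where its probe set 1415812_at changed by 0.24 and was not called.

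Markers of other cell types are given by their summed signal on chip 430A and their calls. Each sum adds raw signals, so its brightest genes weigh most. After 2 weeks on relative to before induction, where Mfap5 and Pi16 rose and Gsn fell, the calls beside Aldh1a2 were Abcc9, a channel subunit of pericytes and muscle cells, lower (-0.93, adjusted p = 0.00116), the calcium release channel Ryr2 of heart muscle higher (0.90, adjusted p = 0.000217) and the endothelial junction gene Cldn5 higher (0.59, adjusted p = 0.0374). Of these, Cldn5 was not called without the pair with Xist signal (0.21, adjusted p = 0.575). The sums of these groups overlapped for smooth muscle and pericyte markers (9 of 10 genes, 12082 to 15736 and 14081 to 16767), heart muscle (7 genes, 127845 to 223017 and 149560 to 194801) and endothelial markers (10 genes, 9051 to 10621 and 9231 to 9880). They overlapped too for macrophage and leukocyte (9 of 10 genes, 7156 to 7837 and 6367 to 9042), adipocyte (3 of 6 genes, 10355 to 12781 and 10264 to 12526), nerve and Schwann cell (2 of 5 genes, 337.7 to 599.4 and 407.1 to 670.8) and epicardial and mesothelial markers (3 of 8 genes, 536.2 to 795 and 351 to 907.2). With 6 weeks on, endothelial markers summed to 6275 to 7962, below all hearts before induction, with 4 called lower (2 without the pair). Smooth muscle and pericyte markers summed to 12151 to 15464 there, with 2 called higher than before induction (Cnn1 and Cspg4) and 2 lower (Abcc9, by -2.77, and Kcnj8). Ryr2 was also called higher there (0.62).

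Several of these markers moved with repression as well. Endothelial markers summed to 9273 to 10665 after 2 weeks off, above all hearts after 6 weeks on (6275 to 7962), with 4 called higher. Macrophage and leukocyte markers summed to 8545 to 11820 after 2 weeks off, above all hearts after 6 weeks on (5723 to 8306), with 2 called higher. Their sum was 7872 to 11937 after 2 days off, again above all hearts after 2 weeks on (7156 to 7837), with 2 called higher. Smooth muscle and pericyte markers overlapped after 2 weeks off and 6 weeks on (13733 to 14549 and 12151 to 15464), with 2 called higher (Abcc9, by 2.40, and Kcnj8) and 2 lower (Cnn1 and Cspg4). Ryr2 was called higher after 2 weeks off relative to 6 weeks on (0.57). Adipocyte markers (3 of 6 genes) had a median log2 change of 1.19 after 2 days off relative to 2 weeks on, with 1 called higher and 1 lower. It was 1.35 after 2 weeks off relative to 6 weeks on, with 1 called higher, and the sums overlapped both times. Of nerve and Schwann cell markers (2 of 5 genes) 1 was called higher after 2 weeks off relative to 6 weeks on. Atrial markers (6 genes) ran widely in every group, and 0 were called in these comparisons with all hearts fitted. They summed to 4964 to 43397 after 2 days off and 2838 to 16252 after 2 weeks on, with a median log2 change of 1.47. They summed to 7557 to 46864 after 2 weeks off and 6172 to 17068 after 6 weeks on, with a median log2 change of 0.94. Before induction they ran from 2550 to 67715, and heart 4, the high heart at Mfap5 1418454_at, was the highest. The median atrial change after 2 weeks on relative to before induction was -0.19, and 1.25 without the pair with Xist signal. The defining markers Msln, Krt19, Cd3e, S100b, Lmod1 and Cidec were below the filter. The part of these cell types in the members' changes was not tested.

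By the correlation of log2 values over the 18 hearts, the genes most like Mfap5 1418454_at were Thbs1 (0.896), Timp1 (0.893) and Serpinf1 (0.892), where the values in parentheses are Pearson's r. For Pi16 1453839_a_at they were Pgd (0.928), Coa5 (0.919) and Fam104a (0.918), and for Gsn 1456312_x_at Cebpg (0.847), Wasl (0.835) and Slc4a4 (0.828). The genes most like Tcf21 1417447_at were Fam13c (0.828), Usp1 (0.821) and Zfp943 (0.814). Those for Pdgfra 1421917_at were Eif2s2 (0.834), Gak (0.79) and Ulk2 (0.786), and for Ddr2 1422738_at Aff4 (0.89), Asap1 (0.862) and Mus81 (0.855). These are the highest among all probe sets past the filter, over hearts that share groups and arrays, and are given as a description. No member was among the first 3 of another.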

How the data were processed

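RNA of 18 hearts was measured on Affymetrix chips 430A and 430B. The authors deposited linear intensity values, MAS5 signals per the submitters' processing notes. Trimming 2% at each end, array means within a chip differed by at most 0.006% (500.2 on 430A, 122.5 on 430B), so values were used as deposited. Equal means do not show that the arrays are otherwise comparable, and scaling to a common median moved calls, as given below. Array medians were 183 to 231.7 and 60.88 to 78.91. Precision is limited by how many arrays there are.

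Probe sets with a mean of at least 20% of the trimmed mean were kept (15565 and 17519). Log2 of signal plus 10% of the trimmed mean (50.02 and 12.25) was modelled separately for each chip (R 4.3.3, limma 3.58.1, trended eBayes) with 5 group means and no covariate, adjusting by Benjamini-Hochberg within a chip. The fit was tested on simulated data. Correlations and exact permutation tests used Python 3.11.15. Symbols came from the platform annotation and sequences from RefSeq (GRCm38.p6).

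All 18 member probe sets are named, with the 3 genes on the same chip most correlated with each tested member. For part of the further lists and comparisons up to 4 called genes are named by adjusted p, and other calls are given as counts. The members and gene lists were chosen with earlier results of these data known. Alternatives were the filter, offset, normalization, variance model, replicate number, samples fitted, and leaving out each heart or the pair with Xist signal. The fitted spread is that among these hearts.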

Additional observations from a re-analysis of the deposited data

Results flagged for a closer look

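Dixon's criterion was applied to 54 sets of 4 hearts, 1 for each group of 4 and probe set, and in 3 of them a single heart lay far from the others, which chance gives in about 1 in 20 sets. Heart 4 before induction read 1767 at Mfap5 1418454_at, against 789.3 to 872.7 in the other 3. Heart 1 before induction read 994.2 at Pi16 1453839_a_at, against 601.9 to 637 in the other 3. Heart 2 after 2 weeks on read 268.8 at Ddr2 1422738_at, against 455.8 to 493.4 in the other 3.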

How the results depend on the processing

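Of the 15 member probe sets, 7 were called after 2 weeks on and 6 after 2 days off relative to before induction, and 3 and 3 without the pair of hearts with Xist signal, where the share of all probe sets called was 1.58% and 1.54%, against 5.01% and 3.23%. After 2 days off relative to 2 weeks on 0 were called, but 1 under quantile normalization and 1 with only the compared groups fitted, with 9.73%, 10.8% and 13.2% of all called. After 2 weeks off relative to 6 weeks on 4 were called, and 1 and 1 under these settings, with 10.9%, 10.6% and 2.82% of all called. Leaving out 1 heart at a time gave 6 to 7, 4 to 6, 0 to 1 and 2 to 5 in these 4 comparisons, 4 to 7 for 6 weeks on and 3 to 6 for 2 weeks off relative to before induction, and 0 to 0 and 0 to 0 for 6 against 2 weeks on and the late against the early response. The share of all probe sets called ran over 3.08% to 6.3%, 1.52% to 5.03%, 6.86% to 11.7%, 6.71% to 11.3%, 9.4% to 14%, 1.11% to 3.99%, 2.21% to 4.42% and 0.215% to 0.898% in the same order. Same-numbered hearts did not deviate together (median correlation -0.0182 on chip 430A), and with the number as a replicate block the counts were 7, 0, 6, 5, 0, 4, 4 and 0 over the 8 comparisons, the values without it being 7, 0, 6, 5, 0, 4, 4 and 0. Over 120 results of single probe sets, 3254 alternative values kept their side of the threshold, 57 lost and 25 gained a call, and no called direction reversed. Of those lost, 27 were for Gsn, 15 for Tcf21, 14 for Mfap5 and 1 for Pi16. Scaling arrays to a common median moved the median of all probe sets by 0.147 after 6 weeks on relative to before induction. The percentage of all calls that were higher was then 67.8, 40.2, 65.2, 70.6, 63.6, 43.2, 63.1 and 40.2 over the 8 comparisons, against 53.1, 54.3, 54.7, 42.8, 41.7, 59.5, 45.5 and 50.3 as deposited. Member calls were 3 higher and 1 lower after 6 weeks on relative to before induction, 1 and 4 after 2 days off relative to before induction, and 0 and 4 after 2 weeks off relative to 6 weeks on. Of all probe sets 8.54% and 3.56%, 1.65% and 0.88%, and 4.2% and 5.52% were called higher and lower there. The cause was not tested. The fits without the pair for Mfap4 and the further gene lists were chosen after seeing the data. Low signal limits dim probe sets such as that of Mfap4.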
